A study of Mus musculus with 33 samples.

Results

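The 8 genes described here encode the parts of the cone phototransduction cascade, the chain of proteins that turns light into an electrical signal in cone photoreceptors. They are Opn1sw, Arr3, Gnat2, Pde6c, Gngt2, Cnga3, Cngb3 and Gnb3, and they were chosen by name from the 47729 genes of the count tables, with earlier results of these data known. The data are RNA sequencing counts from 33 libraries of retinal progenitor cells, from which retinal neurons and Muller glia arise by division, taken from C57BL/6J mouse retina at embryonic day 14. There were 3 libraries in each of 11 groups. At day 0 cells were untreated, cone primed with COCO protein, a secreted factor that blocks TGF-beta, Wnt and BMP ligands, or rod primed with taurine and retinoic acid. Cone induced cells (COCO protein) and rod induced cells (taurine and retinoic acid) were sampled at days 5, 12, 21 and 35. All groups share the strain, and the labels give no genetic alteration. The labels do not describe the medium, and they do not say whether the replicates of a group came from separate animals or cultures, so p-values measure the spread between these libraries, which may be technical.

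In a cone, light is absorbed by an opsin, here the short-wavelength opsin Opn1sw, and the active opsin switches on the cone transducin made of the alpha subunit Gnat2, the beta subunit Gnb3 and the gamma subunit Gngt2. Transducin activates the cone phosphodiesterase, whose catalytic subunit is Pde6c, and the fall of cyclic GMP closes the channel formed by Cnga3 and Cngb3. Cone arrestin, Arr3, ends the signal by binding the active opsin. Mouse cones are born in the embryonic retina around the age at which these cells were taken, and opsin and arrestin are typically made later than the first photoreceptor transcripts. Gnb3 is also used by ON bipolar cells, and Gngt2 is also made by monocytes.

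Per GENCODE M21 on build GRCm38, all 8 are protein-coding. Opn1sw (ENSMUSG00000058831) lies on chromosome 6 at 29376671-29388468 and Gnb3 (ENSMUSG00000023439) on chromosome 6 at 124834240-124840275, both on the minus strand. The positions in the abundance tables match these except for Pde6c. The others lie on the plus strand: Arr3 (ENSMUSG00000060890) on chromosome X at 100605497-100618493, Gnat2 (ENSMUSG00000009108) on chromosome 3 at 108092789-108101432, and Pde6c (ENSMUSG00000024992) on chromosome 19 at 38132781-38183958. Gngt2 (ENSMUSG00000038811) is on chromosome 11 at 95837216-95845734, Cnga3 (ENSMUSG00000026114) on chromosome 1 at 37214434-37263384, and Cngb3 (ENSMUSG00000056494) on chromosome 4 at 19280850-19510623. The 3' end of Opn1sw overlaps Calu on the opposite strand. Gngt2 overlaps Abi3 on the opposite strand, and Cngb3 contains the processed pseudogene Gm11877 on its own strand. Calu reached 589 ± 66.8 CPM (SD, n = 3) in cone cells at day 35, where Opn1sw had 0 counts, and Abi3 did not exceed 2.39 CPM in any library.

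The sequences before the start sites are shown because the 8 genes moved largely together, and because sites of photoreceptor transcription factors lie in such windows. RefSeq promoter entries on GRCm38.p6 matched 4 of the 8 genes, in 5 entries, and the 3 windows of 250 bases that overlap no annotated UTR are printed. Each runs 5' to 3' along the gene and ends at the base before the RefSeq start, which for Opn1sw and Cnga3 lies inside the GENCODE span. Capitals mark matches, on either strand, to TAATCC and TAAGCC (cores bound by CRX and OTX2), TAATTA (a general homeodomain core) and AGGTCA (the core of nuclear receptor sites).
Opn1sw, chr6:29380514-29380763, minus strand: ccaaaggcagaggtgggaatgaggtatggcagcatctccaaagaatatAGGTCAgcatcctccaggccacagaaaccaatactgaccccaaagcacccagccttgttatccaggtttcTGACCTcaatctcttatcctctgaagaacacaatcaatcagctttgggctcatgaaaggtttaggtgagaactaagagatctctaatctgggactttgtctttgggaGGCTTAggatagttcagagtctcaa
Arr3, chrX:100605247-100605496, plus strand: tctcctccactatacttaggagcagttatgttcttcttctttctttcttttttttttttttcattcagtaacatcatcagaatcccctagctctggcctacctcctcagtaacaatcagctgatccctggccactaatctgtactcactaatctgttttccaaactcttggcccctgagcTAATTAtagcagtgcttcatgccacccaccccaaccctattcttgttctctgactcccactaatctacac
Cnga3, chr1:37218955-37219204, plus strand: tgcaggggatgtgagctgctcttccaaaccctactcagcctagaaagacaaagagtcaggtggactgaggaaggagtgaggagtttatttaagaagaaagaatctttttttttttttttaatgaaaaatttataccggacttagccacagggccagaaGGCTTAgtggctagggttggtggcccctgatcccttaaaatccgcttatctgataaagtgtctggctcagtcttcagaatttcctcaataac
With the base before the start counted as -1, the Opn1sw window holds TAAGCC on the opposite strand from -25, AGGTCA on the gene's strand from -202 and AGGTCA on the opposite strand from -132. The Arr3 window holds TAATTA, which reads the same on both strands, from -70, and the Cnga3 window holds TAAGCC on the opposite strand from -92. A further window lies before the RefSeq start of Gnat2, inside its GENCODE span, and overlaps a UTR. That window holds TAATCC on the opposite strand from -19, and the first Cnga3 window holds none of the 4 motifs. No matches overlap each other. Among 32851 RefSeq promoter windows of the same length, TAATCC is in 6.25%, TAAGCC in 8.20%, TAATTA in 4.84% and AGGTCA in 14.0%. A match is a description of letters and no evidence of binding.

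The libraries held between 7511837 and 19166442 reads counted in genes (median 12985662). Levels are given as CPM, counts scaled to a common library size after TMM normalisation, and a count of 3 in a library, the most that a count of 0 allows, corresponds to 0.174 to 0.407 CPM. A group is called at the floor where its mean CPM is at or under the mean of its libraries' values for 3 counts. These limits cover counting error only, since reads were not tied to single molecules. All 10 retinal progenitor markers were detected in every group, at summed levels of 1108 to 2642 CPM per library. The TPM values in the deposited abundance tables were not used for levels. In them mt-Nd6, transcribed from the opposite mitochondrial strand, stood 61.9- to 131-fold above mt-Co1, while in the counts mt-Co1 stood 11.1- to 36.1-fold above mt-Nd6. In the same tables Pde6c was listed at 0 in 30 of 33 libraries, of which 21 had at least 10 counts.

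At day 0 the members differed widely in level. Per kilobase of exon, untreated cells had 49.99 CPM of Gnb3, 39.5 CPM of Gngt2 and 28.3 CPM of Cngb3, so these 3 genes dominated. Gnat2 followed with 10.2 CPM per kilobase and Pde6c with 8.97. The channel subunit Cnga3 had 1.05 CPM per kilobase, far below its partner subunit Cngb3. Opn1sw, at 0.598, and Arr3, at 0.454 CPM per kilobase, were the lowest. The opsin and its arrestin were thus the scarcest members per length, and subunits of the transducin and the channel the most abundant. The summed level of the 8 genes in untreated cells was 407, 462 and 339 CPM in replicates 1, 2 and 3.

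**Figure D1:**
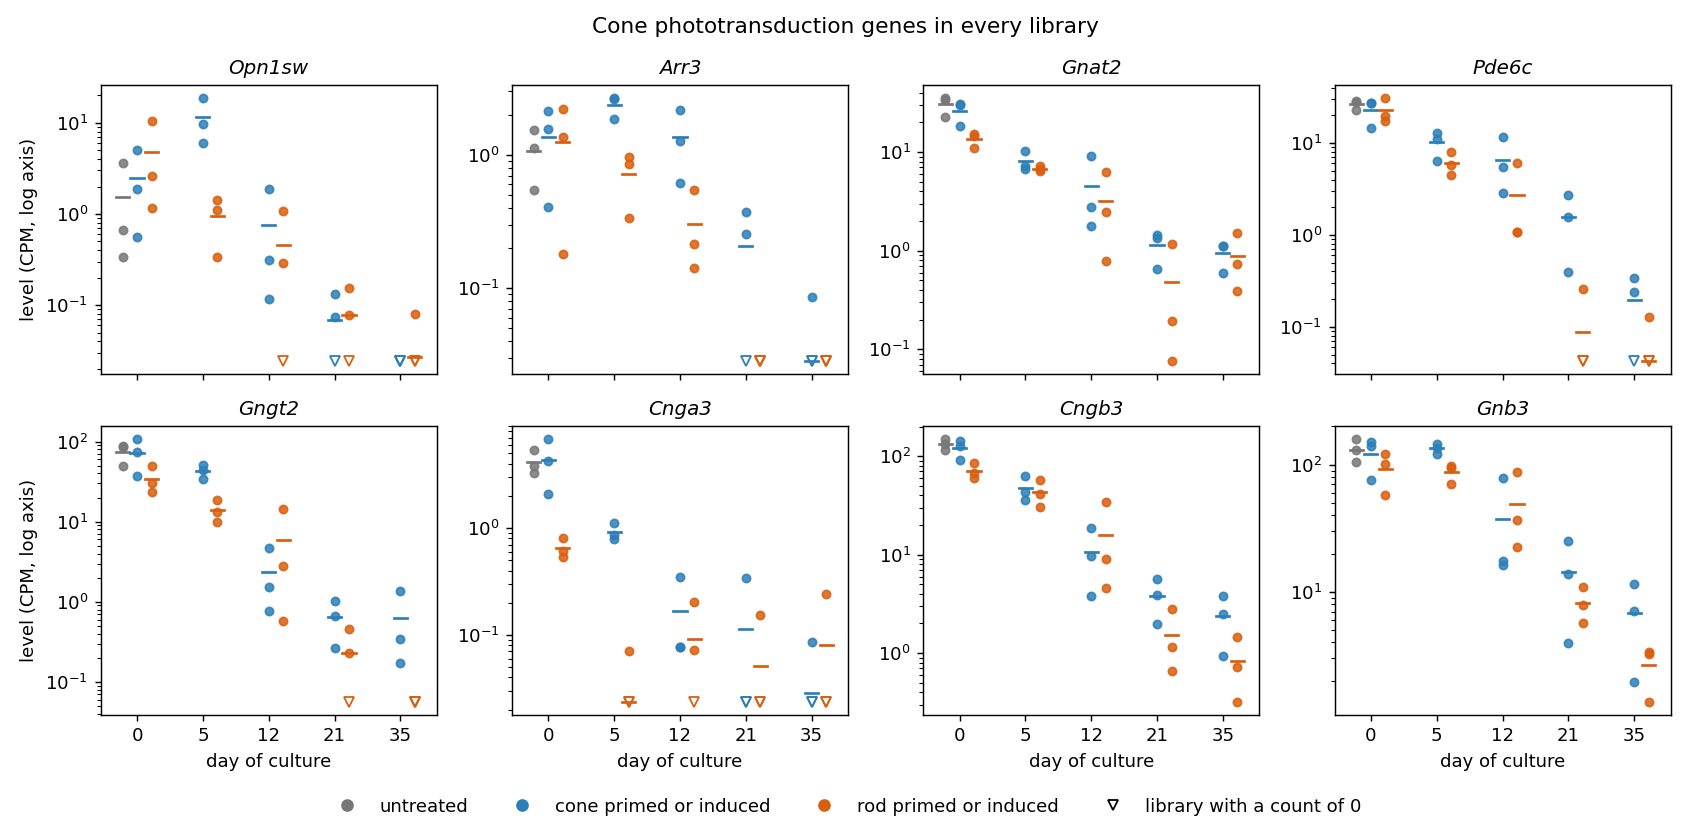
Level of each of the 8 genes in every library (CPM, log axis) against the day of culture; points are libraries, bars are means of 3 libraries, and open triangles, placed below the lowest counted library, are libraries with a count of 0. Gnat2, Pde6c, Gngt2, Cngb3 and Gnb3 start high and fall by day 21 in both conditions, while Opn1sw has its highest mean, 11.5 CPM, in cone cells at day 5.

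Priming was measured at day 0 against untreated cells. Cone priming changed none of the 8 genes (0 of 8 called at an adjusted p under 0.05 by edgeR's quasi-likelihood test with Benjamini-Hochberg adjustment, 0 at an unadjusted p under 0.05, and 0 called by DESeq2 or limma-voom), and 0.00% of the 18150 genes tested were called in that comparison. Rod priming lowered 1 of the 8, Cnga3, against 10.3% of all genes called in either direction and 3.57% called lower. Cnga3, the A subunit of the cyclic GMP-gated channel, was at 5.37, 3.27 and 3.80 CPM in untreated cells, at 6.79, 2.10 and 4.19 CPM in cone primed cells, and at 0.813, 0.604 and 0.538 CPM in rod primed cells. Every rod primed library lay below every untreated and every cone primed library. The log2 fold change was -2.66 ± 0.69 (SE) against untreated cells (adjusted p = 0.0129, edgeR) and cone primed cells stood 2.73 ± 0.69 above rod primed cells (adjusted p = 0.0145, edgeR). Both comparisons use the same 3 rod primed libraries. The first call was lost without rod primed replicate 2 or 3 (adjusted p 0.0521 and 0.0779, edgeR), and the second also without cone primed replicate 1 (0.0602, 0.0867 and 0.0916, in the order rod primed 2, rod primed 3, cone primed 1).

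Of the other members 5 were lower and 2 higher after rod priming, none of them called. The higher ones were Opn1sw (log2 difference 1.74 ± 0.94, adjusted p = 0.264, edgeR) and Arr3 (0.25 ± 0.72, adjusted p = 0.88). Gnat2 was at 33.4, 35.2 and 22.7 CPM in untreated cells and at 15.2, 14.4 and 11.0 CPM in rod primed cells, a log2 difference of -1.17 ± 0.50 (SE, adjusted p = 0.141, edgeR). Cngb3 differed by -0.90 ± 0.50 (adjusted p = 0.273, edgeR) and Gngt2 by -1.12 ± 0.59 (adjusted p = 0.255), and limma-voom called these 3. In Cnga3, Gnat2, Cngb3 and Gngt2 the libraries of the 2 groups did not overlap, which was the case for 33.6% of all genes. Between cone primed and rod primed cells 1 of 8 members was called, higher in cone primed cells (7.27% of all genes called, 2.50% higher), and Cnga3, Cngb3 and Gnat2 did not overlap (29.5% of all genes). Of 8 Muller glia markers 7 were called after rod priming, 6 of them higher (6.71% of all genes called higher, 3.57% lower). Their summed level ran from 2019 to 2441 CPM in rod primed libraries against 855 to 1027 CPM in untreated ones. Of 10 retinal progenitor markers 5 were called, 4 of them higher. They summed to 2173 to 2642 CPM in rod primed and 1528 to 1809 CPM in untreated libraries. The part of either set in the lower member levels was not tested.

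Opn1sw, the opsin, had its highest level in cone cells at day 5. It was at 18.7, 5.95 and 9.76 CPM there, at 0.337, 1.43 and 1.11 CPM in rod cells at day 5, and at 5.03, 0.565 and 1.88 CPM in cone primed cells. All 3 cone libraries at day 5 lay above all libraries of both other groups. Against rod cells the log2 fold change was 3.51 ± 0.95 (SE, adjusted p = 0.0184, edgeR), a call lost without cone day 5 replicate 1 or rod day 5 replicate 1 or 3 (adjusted p 0.0881, 0.101 and 0.0620). Against cone primed cells it was 2.24 ± 0.89 and was not called (adjusted p = 0.0706, edgeR), though limma-voom called it (0.00598), as did edgeR without cone primed replicate 1 (log2 change 3.29, adjusted p = 0.0344). The opsin was already present in 1 rod primed library at 10.4 CPM, the others having 2.62 and 1.17 CPM.

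After day 5 the opsin fell to the floor. It was lower at day 12 than at day 5 in cone culture, with a log2 change of -3.82 ± 0.97 (adjusted p = 0.00266, edgeR), to 0.117, 1.86 and 0.309 CPM. By day 21 it was at the floor in both cultures, with 2 counts in the 3 cone libraries and 3 in the 3 rod libraries. At day 35 the cone libraries held 0 counts, which puts the level at least 9.91-fold lower than in cone primed cells, and the rod libraries held 1. In the order of its group means, no 2 neighbouring groups differed beyond the spread of their libraries.

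Arr3, the cone arrestin, was scarce in all groups. Its highest level was also in cone cells at day 5, at 1.87, 2.61 and 2.67 CPM, against 0.337, 0.857 and 0.971 CPM in rod cells, with no overlap but no call (log2 difference 1.67 ± 0.69, adjusted p = 0.143, edgeR). At day 12 cone cells had 1.28, 2.17 and 0.618 CPM and rod cells 0.143, 0.545 and 0.216 CPM, again without overlap and without a call (2.13 ± 0.78, adjusted p = 0.0883). Against cone primed cells the log2 change at day 12 was 0.03 ± 0.69 (adjusted p = 0.976, edgeR). In rod culture it was lower at day 12 than in rod primed cells (-1.99 ± 0.80, adjusted p = 0.0483), a call lost without rod primed replicate 1 or 2 or rod day 12 replicate 1 or 3 (adjusted p 0.0951 to 0.326). At days 21 and 35 the rod libraries held 0 counts, at least 5.70-fold and 5.43-fold below rod primed cells. Cone libraries held 8 counts at day 21 and 1 at day 35. The fall at day 21 in cone culture (-2.46 ± 0.85, adjusted p = 0.0186, edgeR) was not called without cone primed replicate 1 or cone day 21 replicate 1 (0.0779 and 0.0579).

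Gnat2, the transducin alpha subunit that carries the signal from the opsin, fell early. In cone culture it went from 30.7, 18.3 and 29.9 CPM in primed cells to 10.1, 7.17 and 6.79 CPM at day 5, with no overlap (log2 change -1.71 ± 0.50, adjusted p = 0.0158, edgeR). That call was lost without cone primed replicate 1 or 3 or cone day 5 replicate 2 or 3 (adjusted p 0.0526 to 0.0734). Rod cells at day 5 had 6.73, 6.43 and 7.21 CPM, close to the cone cells. At day 35 Gnat2 was still above the floor, at 0.597, 1.11 and 1.13 CPM in cone cells and 1.53, 0.727 and 0.387 CPM in rod cells. Its log2 change from primed cells was then -4.77 ± 0.63 in cone culture (adjusted p = 3.1e-07) and -3.97 ± 0.63 in rod culture (adjusted p = 6.48e-06, edgeR).

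Gnb3, the transducin beta subunit, was not called at day 5 in either culture. It was at 139, 75.5 and 151 CPM in cone primed cells and at 145, 136 and 123 CPM in cone cells at day 5, where it had its highest group mean. Rod cells at day 5 had 70.9, 94.5 and 97.1 CPM, below all cone libraries of that day, without a call (log2 difference 0.62 ± 0.54, adjusted p = 0.545, edgeR). Between days 5 and 12 it fell in cone culture by 1.83 ± 0.56 (adjusted p = 0.0099, edgeR), a call lost without cone day 12 replicate 1 or 3 (0.0621 and 0.0575), as was the call against primed cells (-1.69 ± 0.56, adjusted p = 0.0148, then 0.0832 and 0.0843). At day 35 it was at 1.96, 11.6 and 7.10 CPM in cone cells and 3.23, 1.37 and 3.35 CPM in rod cells, making up 61.9% and 58.7% of the members' summed mean level. The 8 markers of bipolar cells, which also use Gnb3, summed to 79.2 to 129 CPM per library at day 0 and 108 to 184 CPM at day 35. Single markers moved within that sum. Against primed cells at day 12, 5 were called higher and 2 lower in cone culture (26.7% and 21.7% of all genes). In rod culture 5 were called higher and 0 lower at that day (24.2% and 18.2%). At day 35, 4 were called higher and 3 lower in cone culture (31.1% and 26.5%). Their part in the Gnb3 level was not tested.

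Gngt2, the transducin gamma subunit, fell mostly between days 5 and 12 in cone culture. Cone primed cells had 107, 37.0 and 73.5 CPM and cone cells at day 5 had 50.5, 34.5 and 44.5 CPM, with overlapping libraries. Rod cells at day 5 had 9.76, 18.8 and 13.3 CPM, below all cone libraries of that day, and the log2 difference of 1.62 ± 0.61 was not called (adjusted p = 0.0989, edgeR). Between days 5 and 12 Gngt2 fell in cone culture by 4.16 ± 0.72 (adjusted p = 5.1e-05, edgeR), to 1.51, 4.73 and 0.773 CPM. At day 35 the rod libraries held 0 counts, at least 149-fold below rod primed cells, while cone cells had 0.171, 0.343 and 1.37 CPM. Microglia and macrophage markers, from a lineage that also makes Gngt2, summed to between 20.0 and 99.2 CPM in the same cone libraries and to 4.06 to 7.67 CPM in the rod libraries. The library with the most Gngt2 was also the one with the most of these markers, and their part in its level was not tested.

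Pde6c, the catalytic phosphodiesterase subunit, was still above the floor at day 21 in cone but not in rod culture. At day 5 it was at 12.9, 11.2 and 6.33 CPM in cone cells and 4.49, 5.79 and 7.91 CPM in rod cells, with overlap. At day 12 it was at 5.48, 11.5 and 2.86 CPM against 1.07, 6.00 and 1.08 CPM, also with overlap. At day 21 all cone libraries, at 0.393, 2.74 and 1.55 CPM, lay above all rod libraries, at 0, 0 and 0.261 CPM. The log2 fold change was 3.96 ± 1.05 (SE, adjusted p = 0.0168, edgeR). As counts these are 56 against 4, a ratio of 17.6 with a 95% counting interval of 6.50 to 66.8. The call was lost without cone day 21 replicate 2 or rod day 21 replicate 1 or 2 (adjusted p 0.0996, 0.0615 and 0.0787). In rod culture Pde6c had fallen by day 5 (-1.89 ± 0.54 from primed cells, adjusted p = 0.0154, edgeR), a call lost without rod primed replicate 2 or rod day 5 replicate 1 or 2 (0.0621 to 0.0759). At day 35 it was at the floor in both cultures, with 7 counts in cone and 2 in rod libraries.

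Of the channel subunits, Cnga3 reached the floor first. In cone culture it fell from primed cells to 0.868, 0.790 and 1.10 CPM at day 5 (log2 change -2.22 ± 0.63, adjusted p = 0.0127, edgeR), a call lost without cone primed replicate 1 or cone day 5 replicate 1 or 2 (0.0828, 0.0521 and 0.0600). In rod cells at day 5 the 3 libraries held 1 count in all, against 45 in the cone libraries. That is a ratio of 34.5 with a 95% counting interval of 5.89 to 1393, and it was called (log2 4.66 ± 1.10, adjusted p = 0.0064, edgeR). Against the 18 counts of rod primed cells it is a ratio of 23.6 (3.73 to 983; adjusted p = 0.0158, or 0.0690 without rod day 5 replicate 3). From day 12 on Cnga3 was at the floor in both cultures, with 1 to 5 counts per group.

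Cngb3, the other channel subunit, was far more abundant and fell in both cultures. Cone primed cells had 126, 92.3 and 142 CPM and cone cells at day 5 had 36.0, 43.8 and 62.9 CPM, without overlap and just outside the call (log2 change -1.33 ± 0.50, adjusted p = 0.0556, edgeR). Rod cells went from 68.2, 85.8 and 59.8 CPM to 30.8, 56.9 and 41.3 CPM, close to the cone cells of that day. At day 35 the cone libraries had 0.938, 3.77 and 2.50 CPM and the rod libraries 1.44, 0.727 and 0.322 CPM. Against primed cells the log2 changes were then -5.63 ± 0.65 (adjusted p = 2.82e-08) in cone and -6.47 ± 0.72 (adjusted p = 2.59e-08, edgeR) in rod culture. Both subunits are needed for the native cone channel, and by day 12 only Cngb3 was above the floor.

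**Figure D2:**
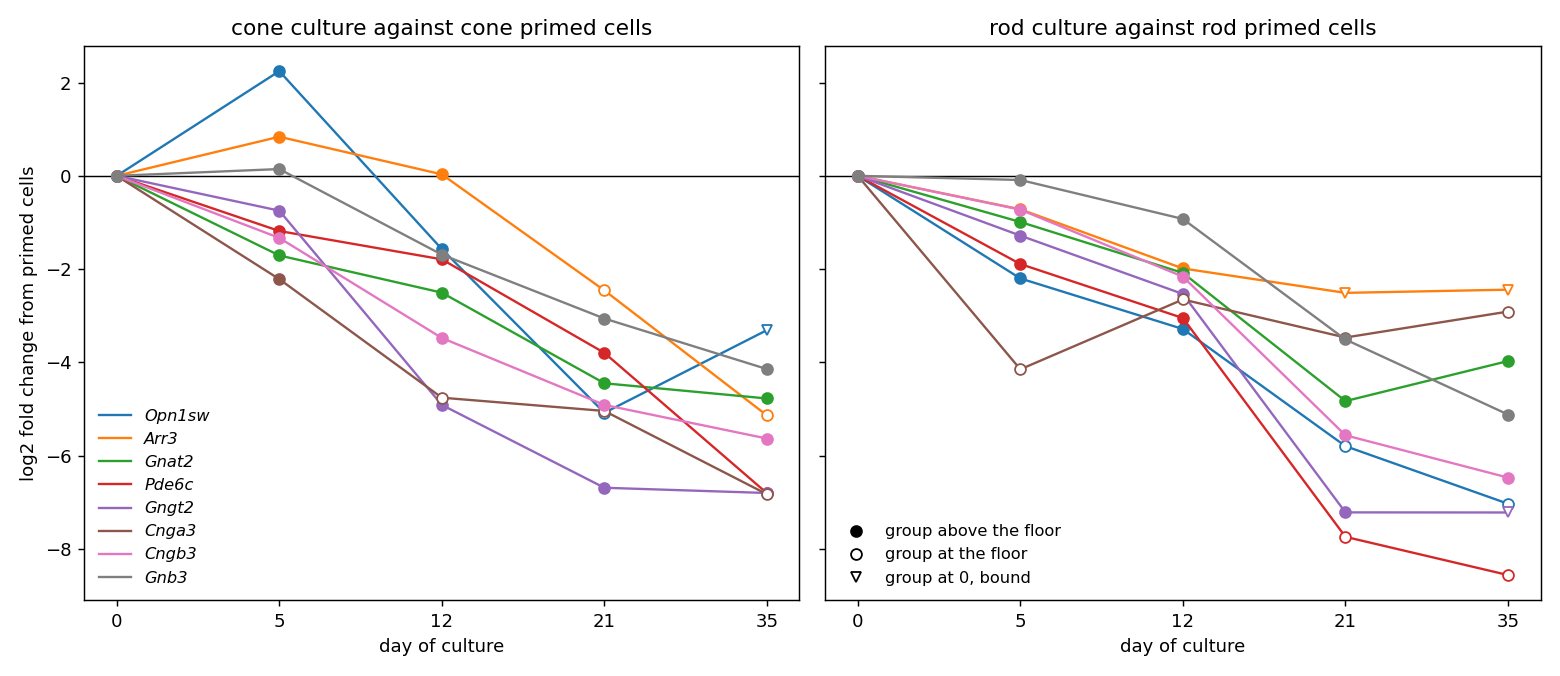
Log2 fold change of each gene from the primed cells of its own condition (left cone, right rod), against the day of culture; filled points are groups above the floor of 3 counts per library, open points are groups at the floor, and open triangles are groups with 0 counts, drawn at the smallest fall that such counts allow. Opn1sw and Arr3 are above their primed level at day 5 in cone culture only, at 2.24 and 0.84, neither of them called, and all 8 genes are below it at days 21 and 35 in both cultures.

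Counted over the 8 genes, the course against primed cells was a fall in both cultures. In cone culture 2 were called lower at day 5 (22.3% of all genes called, 10.2% lower) and 6 at day 12 (48.4% called, 21.7% lower). All 8 were called lower at day 21 (52.6% called, 23.2% lower) and at day 35 (57.7% called, 26.5% lower). By edgeR none was called higher at any of these days, while limma-voom called Opn1sw higher at day 5, as did edgeR with a replicate block (adjusted p = 0.0485) or without cone primed replicate 1. The 6 at day 12 left out Opn1sw (-1.57 ± 1.00, adjusted p = 0.201, edgeR) and Arr3. In rod culture 2 were called lower at day 5 (17.5% of all genes called, 8.79% lower) and 7 at day 12 (42.4% called, 18.2% lower). All 8 were called lower at day 21 (50.8% called, 23.6% lower) and at day 35 (55.6% called, 26.2% lower). The 7 at day 12 left out Gnb3, with a log2 change of -0.92 ± 0.55 (adjusted p = 0.181, edgeR). Among the calls in rod culture, that of Opn1sw at day 12 was lost without rod primed replicate 1 (0.151). Those of Cnga3 at day 12 were lost without rod primed replicate 1 or rod day 12 replicate 1 or 3 (0.0673 to 0.0937), and at day 35 without rod day 35 replicate 1 or 3 (0.0539 and 0.0681).

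The members' median log2 change in cone culture was -0.97, -2.15, -4.68 and -6.22 at days 5, 12, 21 and 35, and -5.39 at day 35 with Opn1sw at its bound. In rod culture it was -1.14, -2.35, -5.68 and -6.71, and with genes at their bound -5.20 at day 21 and -5.79 at day 35. The median of all genes lay between 0.027 and 0.081 in these 8 comparisons. In each culture the 4 comparisons share the primed libraries. In bulk RNA, fewer cones and less of these transcripts per cone cannot be told apart.

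The days between which the fall took place differed between the cultures in the full set of libraries. In cone culture 5 of 8 members were called lower at day 12 than at day 5 (Opn1sw, Gngt2, Cnga3, Cngb3 and Gnb3; 43.2% of all genes called, 18.6% lower), where the Cnga3 call was lost without cone day 12 replicate 2 or 3 (adjusted p 0.0739 and 0.0805). Between days 12 and 21 edgeR called 0 (3.36% of all genes; 6 members at an unadjusted p under 0.05), DESeq2 2 and limma-voom 0. Between days 21 and 35 edgeR called 0 (0.915%; 1 at an unadjusted p under 0.05), DESeq2 1 and limma-voom 0. In rod culture edgeR called 0 between days 5 and 12 (18.3% of all genes; 1 at an unadjusted p under 0.05) and DESeq2 0, but limma-voom called 5. Between days 12 and 21 edgeR called 6 lower (11.2% called, 6.29% lower). Between days 21 and 35 all 3 tools called 0 (1.54% by edgeR; 1 at an unadjusted p under 0.05). The 6 were Arr3, Gnat2, Pde6c, Gngt2, Cngb3 and Gnb3, with log2 changes of -2.58 ± 0.61 (Gnb3) to -4.69 ± 0.97 (Pde6c) among those not at 0, and Arr3 at least 1.37-fold lower.

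That difference in timing was not tested itself, and it rested on 1 library. Rod day 12 replicate 2 had a summed member level of 151 CPM, against 29.5 and 52.4 CPM in replicates 1 and 3, and it was the highest of the 3 in all 8 genes. Without it, 5 members were called lower at day 12 than at day 5 in rod culture (24.4% of all genes called in either direction). They were Cngb3, Gnat2, Gnb3, Gngt2 and Pde6c. Without it, 1, Cngb3, was called lower at day 21 than at day 12 (2.99% of all genes in either direction). All 8 were then called lower at day 12 than in rod primed cells (42.2% in either direction). Cngb3 then fell by 2.71 ± 0.51 between days 5 and 12 (log2, adjusted p = 0.000261, edgeR) and by 2.18 ± 0.59 between days 12 and 21 (adjusted p = 0.0415). Cone day 12 replicate 2 was likewise the highest of its group, with 127 CPM against 38.6 and 26.5 CPM. Without it, 5 members were called lower at day 12 than at day 5 in cone culture (42.2% of all genes called in either direction), with Gnat2 in place of Cnga3. Against primed cells 7 were then called lower (45.2% of all genes in either direction), with Opn1sw added (-3.34 ± 1.33, adjusted p = 0.0441, edgeR). Leaving out a library of rod day 21 ended the calls between days 12 and 21 of Arr3 (replicate 1, 2 or 3), Gnat2 (replicate 1 or 3) and Gnb3 (replicate 3), with adjusted p-values of 0.0511 to 0.140. The Arr3 call was also lost without rod day 12 replicate 3 (0.0608).

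Both libraries also stood out in genes of rods. The 9 rod paralogs of the members summed to 2246 CPM in rod day 12 replicate 2, against 319 and 326 CPM in replicates 1 and 3. In cone day 12 replicate 2 they summed to 860 CPM, against 383 and 370 CPM. The 9 rod paralogs summed to 278 to 322 CPM in the rod libraries of day 35. Their median log2 change from primed cells was -5.34 there, and 8 of the 9 were lower. That sum therefore does not show the course of most genes of the list. The 9 photoreceptor transcription factors summed to 1360 CPM against 356 and 402 CPM in the rod libraries, and to 601 CPM against 300 and 315 CPM in the cone libraries. Rod and cone genes were thus high in the same libraries of day 12.

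Cone and rod conditions were compared directly at each day. At day 5 all 8 members were higher in cone cells, and 2 were called, Opn1sw and Cnga3 (9.28% of all genes called, 3.48% higher). The libraries of 5 members, Opn1sw, Arr3, Gngt2, Cnga3 and Gnb3, did not overlap at that day (32.8% of all genes). At day 12, 0 members were called (10.1% of all genes; 2 at an unadjusted p under 0.05; 0 by DESeq2, 2 by limma-voom), and without rod day 12 replicate 2 Pde6c was called (2.61, adjusted p = 0.00716, edgeR; 7.23% of all genes). Of the 7 members above the floor in at least 1 culture, 4 were higher in cone cells and Gngt2, Cngb3 and Gnb3 were lower. These directions turned on 1 library. Without rod day 12 replicate 2 the log2 differences of Gngt2, Cngb3 and Gnb3 were 0.50, 0.66 and 0.35, and without cone day 12 replicate 2 those of Gnat2 (-0.51) and Opn1sw were negative. At day 21, 1 was called, Pde6c (9.00% of all genes called, 5.86% higher), and all 5 above the floor were higher in cone cells. The other photoreceptor genes were higher in cone cells at day 21 as well. Of the 9 rod paralogs 2 were called higher, Pde6a and Cnga1 (median log2 difference 3.80; 8 at an unadjusted p under 0.05). Of the 9 other cone pathway genes 2 were called higher, Grk1 and Rcvrn (median 1.12), and of the 9 photoreceptor factors 1, Neurod1 (median 1.82), against 1.37 for the members. At day 35, 0 were called (12.3% of all genes; 1 at an unadjusted p under 0.05; 1 by DESeq2, 0 by limma-voom), and the 4 above the floor, Gnat2, Gngt2, Cngb3 and Gnb3, were higher in cone cells.

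**Figure D3:**
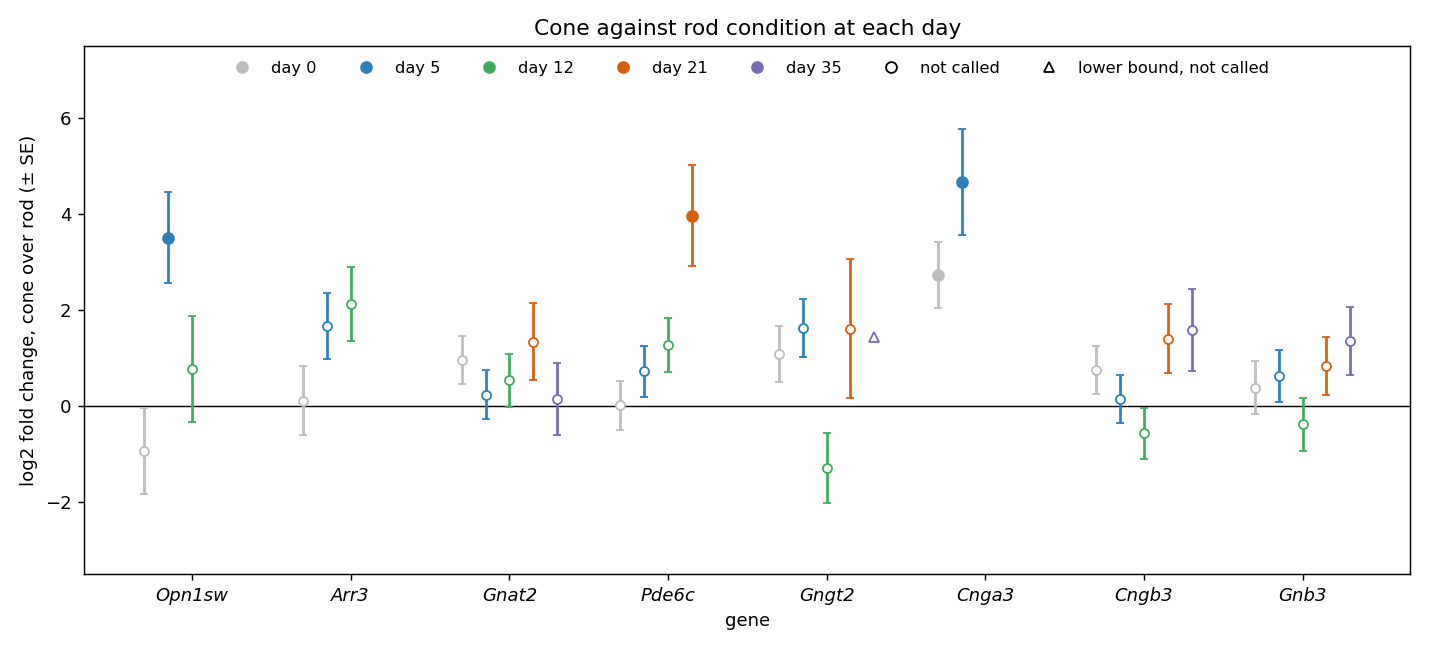
Log2 fold change of cone over rod condition (± SE from the model) for each gene at days 0, 5, 12, 21 and 35; filled points are called at an adjusted p under 0.05, open points are not, the open triangle is a lower bound because the rod libraries held 0 counts, and days with both groups at the floor are left out. The called differences are Cnga3 at days 0 and 5 (2.73 and 4.66), Opn1sw at day 5 (3.51) and Pde6c at day 21 (3.96).

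Averaged over the days from 5 to 35, 2 members were called, both higher in cone cells (27.8% of all genes called, 15.6% higher). Pde6c had a log2 difference of 1.93 ± 0.57 (SE, adjusted p = 0.0121, edgeR), or 1.49 with the day on which both groups were at the floor set to 0. Arr3 had 2.58 ± 0.93 (adjusted p = 0.0413), which rests on fitted values of libraries at 0 and comes to 0.95 when the 2 days at the floor are set to 0. The Pde6c call was lost without cone day 35 replicate 2 (adjusted p = 0.0818), and the Arr3 call without any 1 of 11 libraries (adjusted p 0.0501 to 1.00). Without rod day 12 replicate 2, 6 members were called higher in cone cells (30.5% of all genes called in either direction). They were Arr3, Cngb3, Gnat2, Gnb3, Gngt2 and Pde6c. In the full set the log2 differences of Gnat2, Cngb3 and Gnb3, not called, were 0.57 ± 0.33, 0.64 ± 0.33 and 0.61 ± 0.30. Those of Gngt2, Cnga3 and Opn1sw, also not called, were 1.99 ± 0.83, 1.32 ± 0.81 and 0.56 ± 3.40. Gngt2 came to 0.85 with day 35, where the rod libraries held 0 counts, at its bound. With the days on which both groups were at the floor set to 0, Cnga3 came to 1.17 (3 such days) and Opn1sw to 1.07 (2 such days). Without rod day 12 replicate 2 the 6 called ran from 0.79 ± 0.29 (Gnb3) to 2.74 ± 0.95 (Arr3). Without cone day 12 replicate 2 instead, Pde6c alone was called (1.76 ± 0.55, adjusted p = 0.0181, edgeR). The log2 differences of Gnat2, Gnb3 and Cngb3 were then 0.31, 0.32 and 0.46.

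Whether the difference between the conditions changed with the day was tested directly. The test called 0 of 8 members (9.22% of all genes), with 3 at an unadjusted p under 0.05. Those 3 were Gngt2 (adjusted p = 0.123), Opn1sw (0.148) and Pde6c (0.170, edgeR quasi-likelihood F test), and the adjusted p-values of the others were 0.207 for Cnga3, 0.308 for Arr3, 0.325 for Cngb3, 0.59 for Gnb3 and 0.818 for Gnat2. DESeq2 called 3 members and limma-voom 4. By the edgeR test, a change over days in the cone and rod difference was therefore not shown for any member.

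The other genes of the cone pathway took another course. Of 12 that act with the members in activation and recovery, 9 were tested, while Opn1mw, Pde6h and Guca1a were too low. Opn1mw, the medium-wavelength opsin, had at most 9 counts over the 3 libraries of any group. In cone culture at day 5, 5 of the 9 were called higher than in primed cells and 0 lower (12.2% and 10.2% of all genes). Their median log2 change was 3.15, while 2 of the 8 members were called lower. The 5 included Grk1, the opsin kinase (log2 change 6.23, adjusted p = 0.00116), and Rcvrn, recoverin (5.56 ± 1.14, adjusted p = 0.00099, edgeR), both of which rods use too. The other 3 were Guca1b and Gucy2e, which serve cyclic GMP synthesis, and Gnb5, a partner of the transducin shutoff complex. In rod culture at day 5, 1 of the 9 was called higher, Rcvrn (2.86 ± 0.91, adjusted p = 0.0305, edgeR), near the 8.76% of all genes. At day 35, 1 of 9 was called lower in cone culture, against 8 of 8 members and 26.5% of all genes.

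Rod paralogs, 9 genes that do in rods what the members do in cones, took a like course to these pathway genes at day 5. At day 5 of cone culture 6 of 9 were called higher than in primed cells (median log2 change 3.91; 12.2% of all genes called higher). At day 12 and at day 21, 3 of 9 were called higher, where 26.7% and 29.4% of all genes were. Gnat1, the rod counterpart of Gnat2, changed by 7.08 ± 1.71 (adjusted p = 0.00373), where Gnat2 fell by 1.71. In rod culture at day 5, 1 of the 9 was called higher, Gnat1 (4.45 ± 1.23, adjusted p = 0.013, edgeR), near the 8.76% of all genes. Between cone and rod cells at day 5 edgeR called 0 of the 9 rod paralogs (2 at an unadjusted p under 0.05; median log2 difference 0.67). At day 35, 0 of the 9 were called higher in cone culture (31.1% of all genes) and 2 were called lower, near the 26.5% of all genes. In rod culture 5 of 9 rod paralogs were called lower than in primed cells at day 21 and 5 at day 35 (median log2 changes -4.26 and -5.34; 23.6% and 26.2% of all genes called lower). Between days 12 and 21 of rod culture 8 of 9 were called lower (median -5.75; 6.29% of all genes), but 0 without rod day 12 replicate 2 (median -2.65; 4 at an unadjusted p under 0.05).

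Photoreceptor transcription factors fell as the members did from day 12 on, but not as a list at day 5 of cone culture. Their median log2 change there was 0.41, against -0.97 for the members. By edgeR 1 of the 9 was called higher and 1 lower there (12.2% and 10.2% of all genes). In cone culture 7 of 9 were called lower than in primed cells at day 12, 8 at day 21 and 8 at day 35. The shares of all genes called lower were 21.7%, 23.2% and 26.5%, and the factors' median log2 changes were -2.67, -3.94 and -5.74. Rxrg, a retinoid receptor that marks early cones, was already lower at day 5 (-1.73 ± 0.46, adjusted p = 0.00773, edgeR), whereas Crx, the factor that switches on photoreceptor genes, was not called at day 5 (0.46 ± 0.60, adjusted p = 0.623) and had fallen by day 35 (-5.74 ± 0.75, adjusted p = 2.6e-07, edgeR). Thrb, the receptor needed for the medium-wavelength opsin, was lower by a smaller amount in cone culture at day 35 (-1.22 ± 0.43, adjusted p = 0.0158, edgeR). In rod culture 1 of 9 was called lower at day 5, also Rxrg (-2.28 ± 0.49, adjusted p = 0.00202, edgeR), near the 8.79% of all genes. At days 21 and 35, 9 of 9 were called lower (23.6% and 26.2% of all genes).

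**Figure D4:**
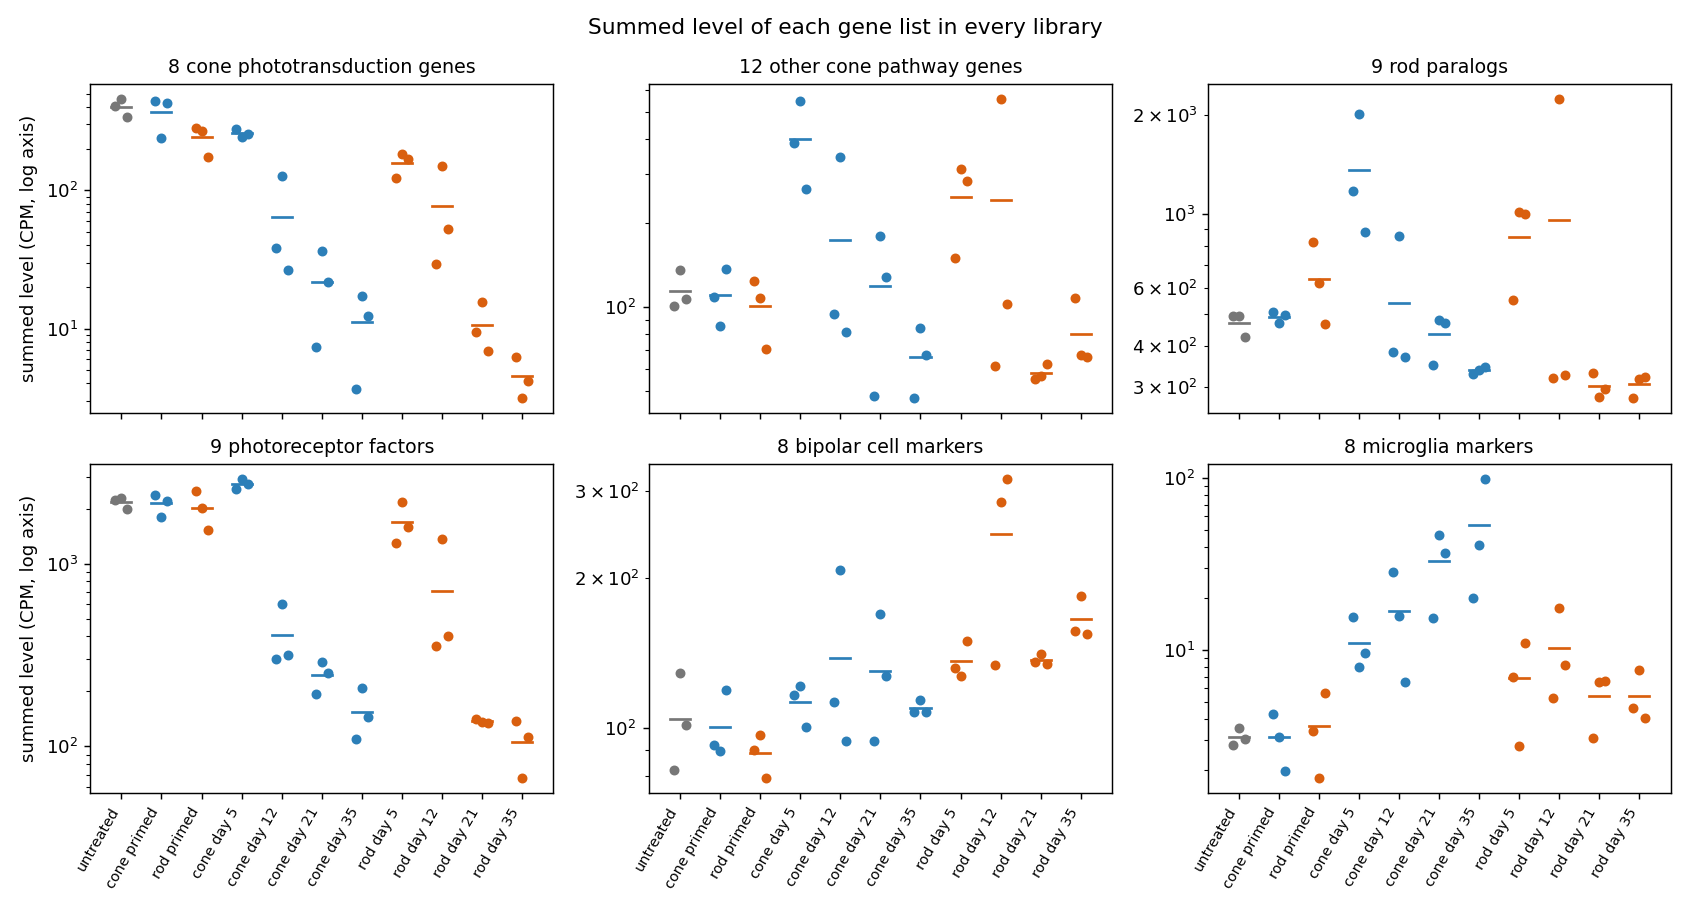
Summed level (CPM, log axis) of 6 gene lists in every library, by group; points are libraries and bars are means of 3. The means of the 8 cone genes and of the photoreceptor factors are lower from day 12 on than at days 0 and 5. The mean of the cone genes is already lower at day 5 than in primed cells (258 against 372 CPM in cone and 159 against 242 CPM in rod culture). The other cone pathway genes and rod paralogs are highest at day 5 or in replicate 2 of day 12. Bipolar cell markers sum to between 79.2 and 317 CPM in all libraries, while single markers of that list were called higher or lower.

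Markers of other cells moved over the same days. Mesenchyme markers (6 genes) summed to 3.26 to 21.7 CPM per library at day 0, 498 to 3592 CPM in cone cells at day 35 and 215 to 724 CPM in rod cells at day 35. Muller glia markers (8 genes) summed to 855 to 1217 CPM in untreated and cone primed libraries and 5474 to 8035 CPM in the libraries of day 35. Microglia markers (8 genes) summed to 1.81 to 5.65 CPM per library at day 0. In untreated cells Cx3cr1 and Ptprc were at 0 and the other 6 had counts. Bipolar markers Grm6 and Vsx1 were at 0 in untreated and cone primed cells. The other 6 bipolar markers had counts there and summed to 82.3 to 129 CPM per library, where Gnb3 was at 75.5 to 159 CPM. Retinal pigment epithelium markers (6 genes) summed to 2.72 to 8.66 CPM per library at day 0 and 21.1 to 33.2 CPM at day 35. Of these 6, Rpe65 was at 0 in all groups but untreated cells and cone cells at day 35. Only 2 of the 6 were tested, and both were called higher than in primed cells at day 35 in both cultures (31.1% of all genes in cone and 29.4% in rod culture). The part of these cells in the fall of the cone genes was not tested.

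The members varied together across libraries. Over the 33 libraries, which share the day of culture, Pearson correlations of log2 CPM between pairs of members ran from 0.61 (Opn1sw with Cnga3) to 0.98 (Gngt2 with Cngb3). After each group's mean was taken away, they ran from 0.30 (Opn1sw with Pde6c) to 0.84 (Gnat2 with Cngb3), so all 28 pairs were positive within groups as well. These values include replicate 2 of day 12, which stood high in both cultures, and its part in them was not tested. Within-group values of other gene pairs are not given here for comparison. Among 11909 other genes, those most alike in pattern to the 5 more abundant members were named by the highest correlation over the 33 libraries. For Gnb3 they were Syp (0.99), Crx (0.98) and Pclo (0.98), for Cngb3 Esrrg (0.99), Cdk5r1 (0.98) and Camta1 (0.98), and for Gngt2 Esrrg (0.98), Peli2 (0.98) and Epha8 (0.98). For Gnat2 they were Tmtc1 (0.96), Sgip1 (0.95) and Cdk5r1 (0.95), and for Pde6c Podxl (0.97), Elavl3 (0.96) and Ncan (0.96). Esrrg and Cdk5r1 were each named for 2 members, and Crx was the single photoreceptor factor among them.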

How the data were processed

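Total RNA of 33 libraries was sequenced after Takara low-input library preparation, per the labels' protocols. The submitters' processing notes name HISAT2, StringTie, HTSeq and build GRCm38. The authors deposited read counts per gene, which are unnormalised, with 5 summary lines that were left out here. Genes hold 26.9% to 34.9% of counted reads. Per the file headers, the deposited abundance tables give TPM, FPKM and coverage. TPM was used only as an alternative, with a pseudocount of 1, because it follows the strand opposite to the counts, and FPKM and coverage were not used.

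A single edgeR 4.0.16 quasi-likelihood model (R 4.3.3, limma 3.58.1) was fitted to all 33 libraries by group, after TMM scaling and filterByExpr at a minimum count of 10. It tested 18150 of 32488 genes with a count, and all 8 members passed. Calls are Benjamini-Hochberg adjusted p-values under 0.05 within each of 23 comparisons, which gives 184 member tests, of which 67 were called. The common biological coefficient of variation was 0.213. Alternatives were RLE size factors, no filter, DESeq2 1.42.0, limma-voom, the compared libraries alone, TPM, a replicate block and leaving out each library. Levels and figures used Python 3.11.15 with pandas 2.3.3, numpy 2.4.6, matplotlib 3.10.9 and scipy 1.17.1. Levels per kilobase use the union of GENCODE M21 exons. The members were named in each comparison and the other lists given by counts. Of each list at most 4 genes get values, and the genes most alike were the 3 with the highest correlation for members whose log2 CPM averaged 0 or more. The members and lists were chosen with earlier results of these data known. Values of some listed genes are not reported here.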

Additional observations from a re-analysis of the deposited data

How the results depend on the processing

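Of 68 member results (67 calls, and Opn1sw at day 5 of cone culture against primed cells), 68 kept their direction and side of the threshold with RLE size factors and with DESeq2, 67 without a filter and 67 with limma-voom. With the compared libraries alone, 46 of 54 did. None changed direction except with TPM, where 17 of 68 did and 47 lost the call; TPM follows the other strand, as described above. With TPM (log2 of TPM plus 1) the reversed values were -0.33 for Arr3 and -0.030 for Pde6c over the mean of days 5 to 35. They were 0.31 and 0.23 for Gnat2 and 1.45 and 0.98 for Opn1sw in cone culture against primed cells (Gnat2 days 5 and 21, Opn1sw days 21 and 35). In rod culture against primed cells they were 1.10, 0.87 and 0.36 for Opn1sw at days 12, 21 and 35, 0.42 and 0.85 for Arr3 at days 12 and 21, 0.77, 0.045 and 0.14 for Gnat2 at days 12, 21 and 35, and 0.12 for Pde6c at day 35. Between consecutive days they were 0.35 for Opn1sw (cone day 12 against 5) and 0.43 for Arr3 (rod day 21 against 12).

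Counts of calls among members moved as follows. Cone against rod by day, 4 calls, came to 8 with the compared libraries alone, 12 with limma-voom and 0 with TPM, and to 3 to 5 with 1 library left out. The mean of days, 2 calls, came to 6 with limma-voom, 0 with TPM and 0 to 6 with 1 library left out. The change with day, 0 calls, came to 3 with DESeq2, 4 with limma-voom and 0 to 1 with 1 library left out. Primed against untreated, 1 call, came to 4 with the compared libraries alone, 4 with limma-voom, 0 with TPM and 0 to 1 with 1 library left out. Cone culture against primed cells, 24 calls, came to 5 with TPM, 28 with limma-voom and 22 to 25 with 1 library left out. Rod culture against primed cells, 25 calls, came to 0 with TPM, 18 with the compared libraries alone, 29 with limma-voom and 22 to 26 with 1 library left out. Consecutive days, 11 calls, came to 5 with the compared libraries alone, 1 with TPM, 14 with DESeq2, 16 with limma-voom and 8 to 11 with 1 library left out. The cause of these moves was not tested. Of the 67 calls, 23 were lost without at least 1 library.

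Same-numbered replicates of cone and rod groups did not deviate together in every pair (correlations of -0.23 to 0.51), and the labels do not say what a number marks. Replicate 2 had the highest summed member level in both cultures at days 12 and 21. The numbers were not taken to pair the samples. With the replicate block the counts of calls were 4 for cone against rod by day, 2 for the mean of days, 0 for the change with day, 1 for primed against untreated, 26 and 24 for cone and rod culture against primed cells, and 11 for consecutive days. Of the 68 results 65 kept their call with the block, Arr3 lost it at rod day 12 against primed cells (adjusted p = 0.0572, edgeR) and at rod day 21 against 12 (0.0533), and Opn1sw gained it at cone day 5 (0.0485).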
